A study of Mus musculus with 24 samples.

Results

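MLO-Y4 is a clonal mouse osteocytic line, derived from long bones of a mouse that carried a viral large T antigen gene under the osteocalcin promoter. Dishes of these cells received an irrelevant rabbit IgG diluted 1 in 50 for 30 min at 37 °C in 5% CO2 and were then either kept in the incubator (C) or moved to the 1g position of a magnet platform, which the labels name as a high magneto-gravitational environment (HMGE). The comparison here is between these 6 arrays, 3 at the 1g position and 3 from the incubator, of 24 arrays in all; they were chosen by their titles, which number the arrays of each group 1, 2 and 3. Other arrays of the series hold cells at the 2g and ug positions after the same IgG, and all 4 environments after Cx43(E2), an antibody that blocks connexin 43 hemichannels, again 3 arrays a group. All groups share the line and an antibody step in the incubator before the groups were parted, so no group is without antibody. How long cells stayed there is not given in the sources used here. Each array measured total RNA of a dish in bulk, so a lower share of cells that express a gene and less of its RNA per cell cannot be told apart.

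In such magnets the force that a field gradient exerts on water adds to or offsets weight, and at the 1g position apparent gravity is the ordinary one while the field is present. The question this pair of groups addresses is therefore how the platform itself, at unaltered apparent gravity, differs from the incubator; field, position and handling cannot be told apart in this design. Osteocytes are the matrix-embedded cells of bone that sense load, and they signal to osteoblasts and osteoclasts through prostaglandins, cytokines and Wnt antagonists. Connexin 43, the product of Gja1, forms the gap junctions and hemichannels through which they release prostaglandin. Chaperones such as the heat shock proteins bind unfolded proteins and are induced when proteins lose their fold, through the heat shock factor HSF1 in the cytosol and through the unfolded protein response in the endoplasmic reticulum. A small group of RNA-binding proteins, with RBM3 and CIRBP as the standard members, is instead known for rising in mild cold.

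The medians of the 6 arrays lay between 6.48 and 6.59 on the log2 intensity scale and 14489 genes were tested. Replicate arrays of a group differed with an SD of 0.215 to 0.284 across genes. Of 12 osteocyte markers 9 were bright enough to test. Pdpn, the early osteocyte marker podoplanin, and Gja1 were among the brightest, with mean incubator levels of 12.7 and 11.7, whereas Dmp1, Phex and Mepe lay at 4.71, 4.44 and 4.57, below the filter on dim rows. Defining markers of other cell types, Ptprc and Adgre1 of leukocytes, Emcn of endothelium and Adipoq of fat, lay between 4.33 and 5.07 in the incubator. Other members of these lists were bright there, with Ctsk at 11.4 and Cd68 at 8.72 (macrophage and osteoclast list), Fabp4 at 10.2 and Cebpa at 8.73 (fat), Sox9 at 9.62 (cartilage) and Tnnt2 at 8.75 (muscle). Of the 7 macrophage and osteoclast, 8 endothelial, 7 fat, 6 cartilage and 6 muscle markers bright enough to test, 0 were called at 1g. Summed log2 levels overlapped between the groups for macrophage, fat, cartilage and endothelial markers. Those of the muscle markers lay between 42.58 and 42.64 at 1g and between 41.95 and 42.39 in the incubator. The part of this difference in the results was not tested. The muscle list was dim, with a median level of 6.96. Its median change was 0.06, beside 0.04 for all genes below the median level. Within an arm, arrays with the same title number resembled each other. Deviations from the group means of the 1g and incubator array correlated at 0.454, 0.534 and 0.711 across genes for numbers 1, 2 and 3. Resemblance was not limited to a shared number. Within an arm, arrays of different numbers correlated at -0.675 to 0.548 (median -0.452), with 23 of 72 values above 0.1. Between the arms, same-numbered arrays correlated at -0.748 to -0.0141. The number within each arm was therefore fitted as a replicate block, and the difference within a number is called a pair.

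The response at the 1g position was small. No gene differed by more than 1 on the log2 scale, 15 differed by more than 0.5, and the quartiles of all genes lay at -0.07 and 0.08. With the block and all 24 arrays, limma called 7 genes at an adjusted p below 0.05 (0.0483%). Banp, Serpinh1 and Hspb1 rose (0.0207% of genes tested), and Rnf125, Map3k20, Nipal1 and Olfr810 fell (0.0276%). Without the replicate block 0 genes passed, with 886 (6.11%) at an unadjusted p below 0.05 against 2204 (15.2%) with it. Of the 2204 genes, 849 (5.86%) were higher and 1355 (9.35%) lower at 1g. For 2299 genes (15.9%) the 1g and incubator arrays did not overlap, 1146 (7.91%) of them higher and 1153 (7.96%) lower, and 3454 (23.8%) were higher and 3071 (21.2%) lower in all 3 pairs.

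How many genes passed depended on which arrays set the spread and on the pairs included. Fitted over the 12 IgG arrays alone, with their title numbers as the block, limma called 209 genes (1.44%), of which 33 rose (0.228%) and 176 fell (1.21%); all 7 were among them. The median standard error was 0.0821 over 24 arrays and 0.0723 over the 12. Leaving out the set of number 1 or of number 2 ended every call, and without number 3 only Banp, Hspb1 and Serpinh1 remained. Scaling the arrays once more changed the balance of directions: 3 of 7 calls (42.9%) were rises on the deposited scale, against 15 of 19 (78.9%) after quantile normalization and 13 of 17 (76.5%) after cyclic loess. Genes below the median level had a median change of 0.04 and those above it -0.02. Of the 209 genes called over the IgG arrays alone, 173 were at or above the median level. That fit was not repeated after scaling the arrays once more or with a number left out.

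**Figure D1:**
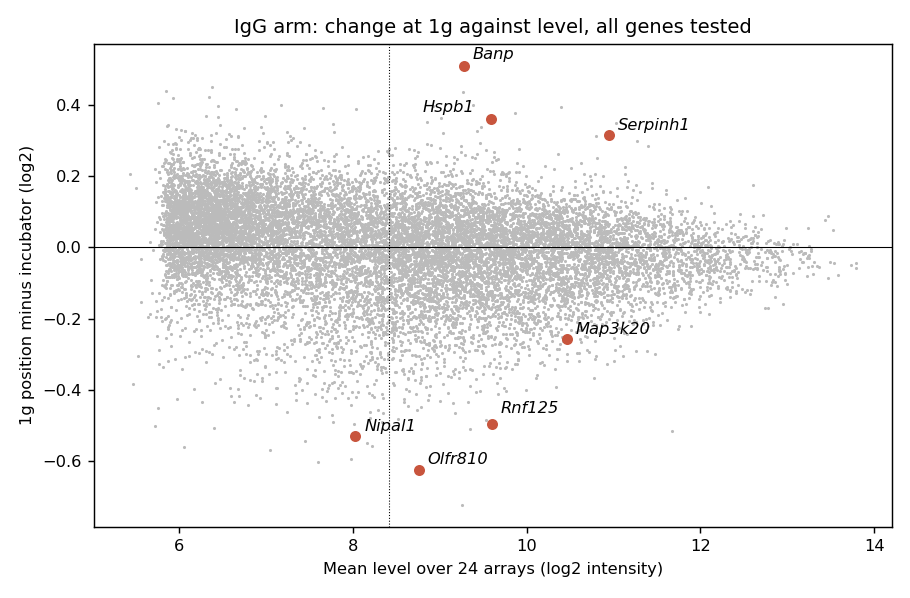
Change at the 1g position against mean level for the 14489 genes tested. Each dot is a gene, the x axis its mean log2 intensity over 24 arrays, the y axis its log2 difference, 1g minus incubator, in the IgG arm; the dotted line marks the median level and the 7 named genes are those called with the replicate block, between -0.62 for Olfr810 and 0.51 for Banp.

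Among the chaperones, the small heat shock protein Hspb1 and the collagen chaperone Serpinh1 rose, and the stress-inducible HSP70 gene Hspa1a was higher in each pair without passing the test. HSPB1 holds unfolding proteins in a refoldable state and protects actin filaments, and SERPINH1 (HSP47) escorts procollagen out of the endoplasmic reticulum. Their RefSeq promoters, 250 bases before the start site on GRCm38.p6, are shown with a pair of inverted GAA units in capitals. Such a pair is a part of the heat shock element. The motif was searched as GAANNTTC and TTCNNGAA, each of which reads the same on both strands.
Hspb1, chr5:135887669-135887918, plus strand: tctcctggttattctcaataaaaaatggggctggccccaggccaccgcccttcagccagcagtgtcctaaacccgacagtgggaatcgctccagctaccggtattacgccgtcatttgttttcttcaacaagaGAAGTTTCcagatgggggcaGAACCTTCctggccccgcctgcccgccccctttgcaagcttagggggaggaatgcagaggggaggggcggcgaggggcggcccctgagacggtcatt
Hspa1a, chr17:34972157-34972406, minus strand: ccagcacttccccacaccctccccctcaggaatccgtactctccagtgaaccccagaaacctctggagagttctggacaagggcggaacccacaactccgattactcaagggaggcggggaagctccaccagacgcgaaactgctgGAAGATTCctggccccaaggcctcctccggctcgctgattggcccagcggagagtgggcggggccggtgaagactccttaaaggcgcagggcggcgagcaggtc
Serpinh1, chr7:99353240-99353489, minus strand: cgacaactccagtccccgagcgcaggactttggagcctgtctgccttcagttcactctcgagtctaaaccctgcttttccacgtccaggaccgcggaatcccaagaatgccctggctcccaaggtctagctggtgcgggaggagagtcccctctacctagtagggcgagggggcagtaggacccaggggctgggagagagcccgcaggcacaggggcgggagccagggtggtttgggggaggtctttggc
Hspb1 holds the motif 117 and 97 bases before its start and Hspa1a holds it 104 bases before, while these letters are not in the Serpinh1 window. Either motif was found in 4218 of 32851 promoters of this length (12.8%), which belong to 27025 genes. In the heat shock list, 9 of the 19 genes with a promoter sequence held it in any of their promoters. The first count is by promoter and the second by gene, so these shares cannot be compared directly. A match is a string of letters and not a measured binding site.

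Hspb1 (probe set 10408928) measured 9.75, 9.78 and 9.44 at the 1g position and 9.30, 9.38 and 9.21 in the incubator, in the order of title numbers 1, 2 and 3. The groups did not overlap, and number 3 was lowest in both. The rise, a mean of 3 pairs, was 0.36 ± 0.06 on the log2 scale (1.28-fold, limma adjusted p = 0.0432, and 0.799 without the block). The gene's second probe set gave 0.34. Here and below, ± on a difference gives the limma SE of the fit with the block over all arrays of the series. This holds too where an adjusted p over the IgG arrays alone is printed. Such an SE is not the spread between the 3 pairs. Serpinh1 (10565794) stood at 11.12, 11.11 and 10.92 at 1g against 10.68, 10.78 and 10.75, a rise of 0.32 ± 0.05 (1.24-fold, adjusted p = 0.0214, and 0.549 without the block). Every 1g array lay above every incubator array, and the pair of number 3 again differed least, by 0.17. Hspa1a (10450369) measured 7.83, 7.98 and 7.64 against 7.23, 7.68 and 7.51. Here 1 array at 1g lay below the highest incubator array, and the difference of 0.34 ± 0.11 did not pass (adjusted p = 0.161). Its near-identical copy Hspa1b has no probe set of its own here, so the reading may hold both.

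No other gene of the chaperone lists passed. The list named for cytosolic heat shock proteins also holds the mitochondrial Hspd1 and Hspe1, the transcription factor Hsf2 and co-chaperones such as Bag3. Of its 21 genes tested, 1 rose and none fell, 11 were higher and 10 lower. The list's median was 0.0045 against 0.01 for all genes, and -0.01 without number 1. The major cytosolic chaperones Hspa8 and Hsp90aa1 differed by -0.02 ± 0.03 and -0.10 ± 0.10, and Hspd1, the mitochondrial chaperonin HSP60, by -0.12 ± 0.05. Dnajb1, an HSP70 partner that HSF1 induces, was 0.17 ± 0.09 higher and did not pass (adjusted p = 0.373). Of 17 genes of collagen folding and export, 1 rose, 10 were higher, 7 lower, and the median was 0.03. Creb3l1, a transcription factor of the secretory pathway in bone cells, differed by 0.17 ± 0.07, and P4ha2, a collagen prolyl hydroxylase, by 0.13 ± 0.06; neither passed.

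Of the unfolded protein response, 0 of 24 genes passed over 24 arrays. Over the IgG arrays alone 1, Sdf2l1, rose, where 0.228% of all genes did. Sdf2l1, a partner of the endoplasmic reticulum chaperone BiP, measured 11.41, 11.22 and 11.39 at 1g and 11, 10.89 and 11.25 in the incubator. The incubator array of number 3 lay above the lowest 1g array, and the difference of 0.30 ± 0.08 passed over the IgG arrays alone (limma adjusted p = 0.0399) but not over 24 (adjusted p = 0.113). Herpud1, a factor of endoplasmic reticulum degradation, was higher by 0.73 and 0.40 in pairs 1 and 2 and differed by -0.09 in pair 3 (0.35 ± 0.12, adjusted p = 0.188). Hyou1 (0.15 ± 0.05) and the degradation ligase Syvn1 (0.23 ± 0.08) had higher values in all 3 1g arrays than in any incubator array, without passing. BiP itself, Hspa5, differed by 0.02 ± 0.03. Of the 24 genes 13 were higher and 11 lower, 7 and 1 of them at an unadjusted p below 0.05 (5.86% and 9.35% of all genes), and the median was 0.02 (-0.02 without number 1).

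The list named for cold-induced RNA-binding proteins is wider than its name. Beside Rbm3 and Cirbp it holds the splicing proteins Srsf2, Srsf5, Rbmx, Tra2a and Tra2b and the kinases Clk1 and Clk4. Of its 9 genes tested, 0 passed over 24 arrays and 3 fell over the IgG arrays alone, where 1.21% of all genes fell. Rbm3 (10556113) measured 12.84, 12.83 and 12.78 at 1g and 12.96, 12.96 and 12.95 in the incubator, groups that did not overlap. The difference of -0.14 ± 0.03 is small, a ratio of 0.91, and the other 2 probe sets of the gene gave -0.16 and -0.15. Cirbp (10364712) stood at 8.98, 9.13 and 9.16 against 9.26, 9.36 and 9.46, a difference of -0.27 ± 0.06 with no overlap. Srsf5 (10508490), a splicing factor, stood at 9.51, 9.51 and 9.14 against 9.88, 9.77 and 9.54, and differed by -0.34 ± 0.08, again without overlap. These 3 genes fell in the fit over the 12 IgG arrays (limma adjusted p = 0.0287, 0.0399 and 0.0404) and each had an adjusted p of 0.0968 over 24. Of the 9 genes, 8 were lower, beside 6642 of all 14489 genes. In all 3 pairs 7 were lower (21.2% of all genes), and the median was -0.13. It stayed between -0.15 and -0.10 after quantile or cyclic loess scaling and without any 1 number. Tra2a was the member that was higher, by 0.04 ± 0.07.

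**Figure D2:**
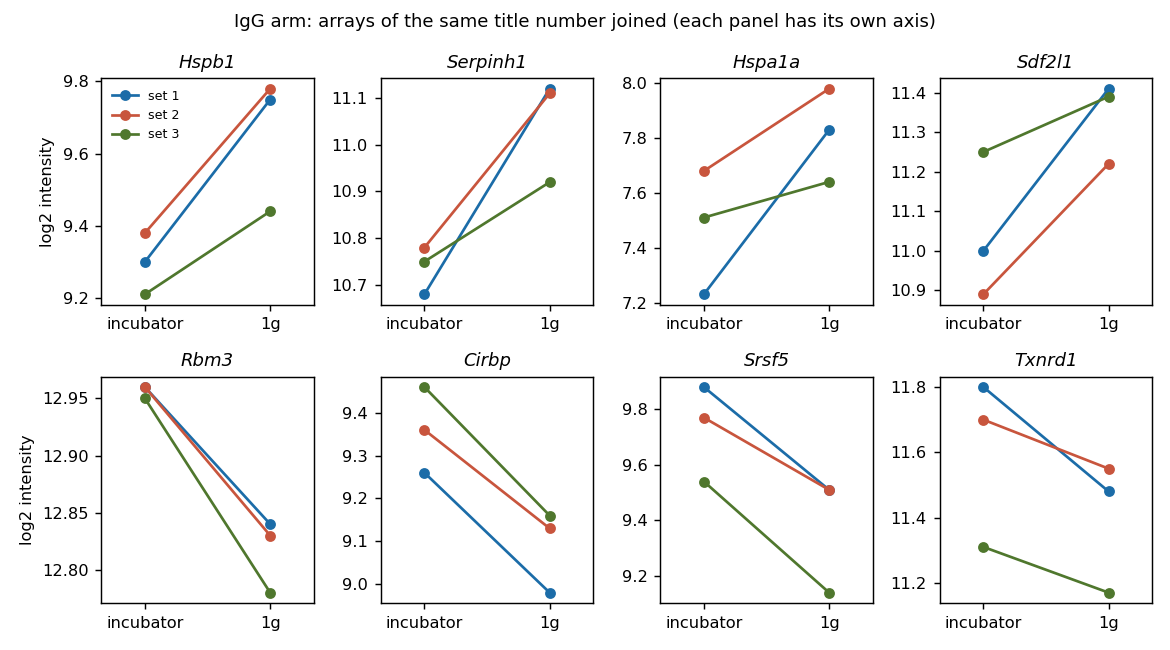
Log2 intensity of 8 genes in the 6 arrays of the comparison, with incubator and 1g arrays of the same title number joined. Each panel has its own axis; Hspb1, Serpinh1, Hspa1a and Sdf2l1 are higher at 1g in each pair, and Rbm3, Cirbp, Srsf5 and Txnrd1 lower in each pair.

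Over the IgG arrays alone, where 1.21% of all genes fell, 3 genes of glutathione and thioredoxin supply fell. They belong to the NRF2 and thioredoxin list, of which 21 genes were tested and 0 called over 24 arrays. NRF2, encoded by Nfe2l2, is the transcription factor that induces this group. Slc7a11 (10498024), the cystine importer that feeds glutathione synthesis, measured 10.97, 10.95 and 9.64 at 1g and 11.37, 11.38 and 9.97 in the incubator. The groups overlapped because both arrays of number 3 were more than 1 unit below the others, and the pairs differed by -0.41, -0.43 and -0.33. Txnrd1 (10365260), thioredoxin reductase, stood at 11.48, 11.55 and 11.17 against 11.80, 11.70 and 11.31, so that it too was separated within pairs and not between groups. Txnrd1 (-0.20 ± 0.04), Slc7a11 (-0.39 ± 0.10) and Gclm (-0.14 ± 0.04), a subunit of the first enzyme of glutathione synthesis, fell in the fit over the IgG arrays (adjusted p = 0.0404, 0.0287 and 0.0481). None passed over 24 arrays (adjusted p = 0.0838, 0.103 and 0.139). Of the 21, 14 were lower and 7 higher, beside 6642 lower and 7847 higher of all genes. At an unadjusted p below 0.05, 8 were lower and 0 higher, where all genes gave 9.35% lower and 5.86% higher; the median was -0.08. Nqo1, a much used reporter of NRF2, differed by -0.09 ± 0.03, and Hmox1, heme oxygenase, by 0.03 ± 0.11. The list's median level, 11.5, lay in the range where all genes had a median of -0.02.

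The remaining called genes belong to no common list. Banp (10576073), a nuclear matrix protein that binds CG-rich promoter motifs, gave the smallest p of all. It measured 9.31, 9.46 and 9.46 at 1g and 8.75, 8.99 and 8.97 in the incubator, with every 1g array clearly above the incubator arrays. The rise was 0.51 ± 0.07 (1.42-fold, adjusted p = 0.0127, and 0.799 without the block). Rnf125 (10454198), a ubiquitin ligase that marks the viral RNA sensor RIG-I for degradation, stood at 9.72, 9.26 and 9.45 against 10.14, 9.75 and 10.02. The groups just failed to overlap, and within pairs the gene fell by -0.42, -0.49 and -0.58 (mean -0.49 ± 0.08, adjusted p = 0.0211). Of the 11 genes listed around RIG-I signalling, 1 fell and none rose. Irf3, a transcription factor downstream of RIG-I, and its adaptor Mavs differed by 0.21 ± 0.06 and 0.13 ± 0.05 and did not pass.

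Map3k20 (10472893) encodes ZAK, a kinase that responds to stalled ribosomes and, in muscle, to load. Its arrays read 10.44, 10.36 and 10.44 at 1g and 10.72, 10.60 and 10.70 in the incubator, without overlap (-0.26 ± 0.05, adjusted p = 0.0432). Map2k4, a kinase below the MAP3Ks that activates JNK and p38, was lower in all pairs by -0.26, -0.25 and -0.31 and fell over the IgG arrays alone (-0.27 ± 0.06, adjusted p = 0.0328, and 0.0968 over 24). Map3k2 (-0.29 ± 0.09) and Map3k7 (-0.21 ± 0.07), the kinase TAK1, did not overlap between groups and did not pass. Of 21 MAP3K and MAP kinase genes 1 fell, 11 were lower and 10 higher, and the median was -0.01 (0.01 after quantile normalization). Nipal1 (10522368), a magnesium transporter, stood at 8.07, 7.99 and 7.78 against 8.65, 8.49 and 8.28. It was the dimmest of the 7 genes and fell by 0.53 ± 0.10 (adjusted p = 0.0492). Olfr810 (10373642), annotated as an olfactory receptor, measured 9.20, 8.60 and 8.48 against 9.59, 9.35 and 9.21, and its 1g array of number 1 lay just under the lowest incubator array. The fall of 0.62 ± 0.11 (adjusted p = 0.0492) was called in 4 of 14 alternative fits, and not after cyclic loess scaling. Nipal1 was called in 6 of the 14. Of 10 listed olfactory receptors, 8 had a row with 1 symbol and Olfr810 was the 1 bright enough to test.

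Of 11 prostaglandin genes tested 0 passed over 24 arrays, and the median was -0.12. Lower were 8 and higher 3, beside 6642 lower and 7847 higher of all genes. Ptgs2, the cyclooxygenase of prostaglandin synthesis, was very bright and measured 13.06, 12.90 and 12.88 at 1g against 13.24, 13.04 and 13.04. The groups overlapped, since the 1g array of number 1 lay above 2 incubator arrays, and the pairs differed by -0.17, -0.14 and -0.16. Ptgs2 (-0.16 ± 0.03) and Ptges3 (-0.12 ± 0.05), which is also the HSP90 co-chaperone p23, fell over the IgG arrays alone (limma adjusted p = 0.0328 and 0.0458). In that fit 1.21% of all genes fell. Neither passed over 24 arrays (limma adjusted p = 0.0941 and 0.219). Grem1, a secreted BMP antagonist, read 12.75, 12.71 and 12.77 against 12.95, 12.90 and 12.90, with no overlap (-0.17 ± 0.03, adjusted p = 0.0709, and 0.0287 over the IgG arrays). The list of Wnt and BMP antagonists and targets that holds it had 10 of 16 genes higher, 0 called over 24 arrays and a median of 0.05, which was -0.01 without number 1 or without number 2; the Wnt antagonists Sost and Dkk1 differed by 0.10 ± 0.08 and 0.09 ± 0.10. Ereg, the growth factor epiregulin, read 11.81, 11.38 and 11.50 against 12.26, 11.83 and 12.13. Its groups were separated by little and the difference was -0.51 ± 0.12 (adjusted p = 0.0968, and 0.0287 over the IgG arrays).

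Of 18 cytokines and chemokines tested 14 were lower, beside 6642 of all 14489 genes. None passed in either fit, and the median was -0.12. Il6 was lower by -0.41, -0.34 and -0.28 in the 3 pairs (-0.34 ± 0.10, adjusted p = 0.158), Vegfa by a mean of -0.18 ± 0.06, and the neutrophil chemokine Cxcl5 by -0.13 ± 0.05. Their groups overlapped. Among 8 genes by which osteocytes control osteoclasts, 6 were lower and none passed, with a median of -0.18. Tnfsf11, which encodes the osteoclast factor RANKL, differed by -0.22 ± 0.17, its decoy receptor Tnfrsf11b by 0.01 ± 0.10, and Sema3a, an inhibitor of osteoclast formation, by -0.24 ± 0.09. The lower values thus hold the inhibitor Sema3a beside the activator Tnfsf11, while the inhibitor Tnfrsf11b was not lower. Il6, Lif and Csf1 belong to both lists.

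**Figure D3:**
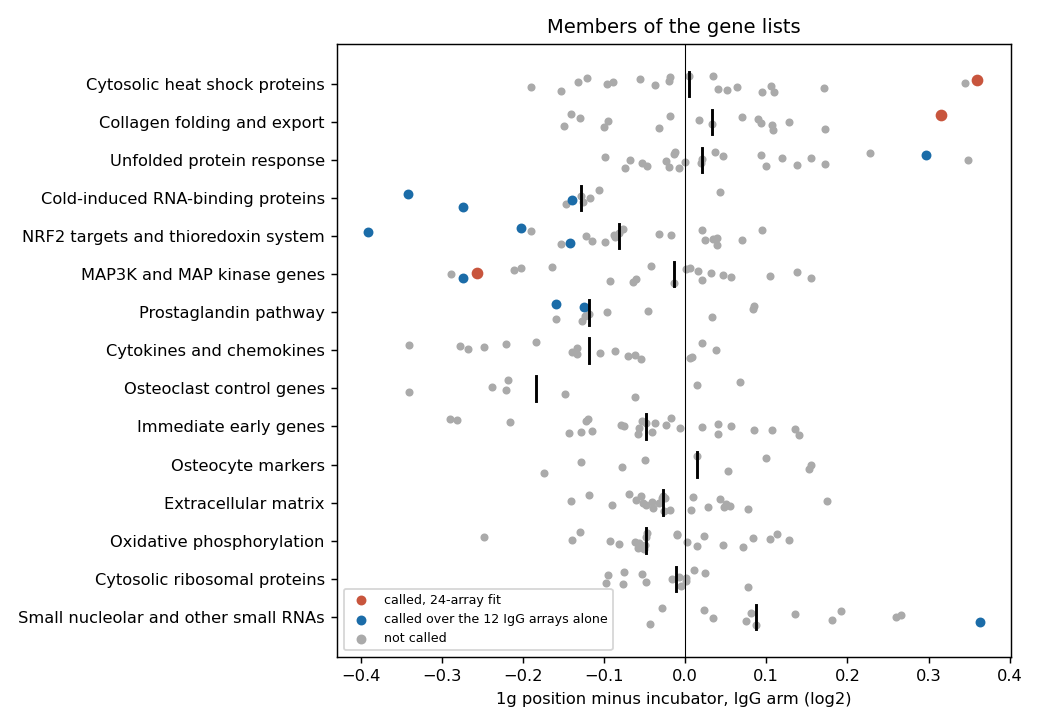
Log2 difference, 1g minus incubator in the IgG arm, for the members of 15 gene lists; each dot is a gene and each black bar the list's median. Red dots are called over 24 arrays and blue dots over the 12 IgG arrays alone. The list named for cold-induced RNA-binding proteins, which also holds other splicing proteins and kinases, has a median of -0.13 and the small RNAs of 0.09.

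The larger rises that did not pass over 24 arrays included several non-coding RNAs. Terc, the RNA component of telomerase, measured 10.06, 10.16 and 9.80 at 1g and 9.67, 9.74 and 9.48 in the incubator (0.38 ± 0.07, adjusted p = 0.0644); the groups did not overlap, and it was called over the IgG arrays alone (adjusted p = 0.0201) and after quantile and cyclic loess scaling. Rnu12, the U12 RNA of the minor spliceosome, was higher by 0.48, 0.46 and 0.15 in the pairs (0.36 ± 0.11, adjusted p = 0.158, and 0.0404 over the IgG arrays). Vaultrc5, a vault RNA, was higher by 0.58, 0.54 and 0.19 and passed neither fit (0.44 ± 0.13, adjusted p = 0.155 and 0.0507). Of 13 small RNAs listed and tested 11 were higher, beside 7847 of all 14489 genes. The list's medians were 0.21, 0.10 and -0.0092 in pairs 1, 2 and 3. The rise in this list was thus not shared by pair 3, and no member passed over 24 arrays.

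Several larger falls had the same dependence on the pair. Rock1, a kinase that drives actomyosin contraction, was lower by -0.83 and -0.85 in pairs 1 and 2 and by -0.10 in pair 3 (-0.59 ± 0.23, adjusted p = 0.244, and 0.0469 over the IgG arrays). Eea1, an endosome tether, differed by -0.82, -0.68 and -0.15, and Zdhhc20, a palmitoyl transferase, by -0.49, -0.70 and -0.20, while its second probe set gave a mean of 0.08. Malat1, a nuclear long non-coding RNA, differed by -0.55, -0.79 and -0.18 and had a wide error over 24 arrays (-0.51 ± 0.29, adjusted p = 0.407). Over the IgG arrays alone Eea1, Zdhhc20 and Malat1 fell as well (adjusted p = 0.0469, 0.0287 and 0.0287). The largest difference of all, -0.72 ± 0.26 for Gm8624, owed its size to a single 1g array at 8.21 beside 9.43 and 9.06; all 3 pairs were lower, and without number 2 the difference was -0.38. Across genes, pair differences correlated at 0.557 between numbers 1 and 2, 0.217 between 1 and 3 and 0.291 between 2 and 3; genes are not independent replicates.

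Gene groups often studied in loaded bone cells held no called gene. Gja1, the antibody's target in the other arm, read 11.56, 11.46 and 11.89 at 1g and 11.59, 11.55 and 12 in the incubator, overlapping groups with a difference of -0.08 ± 0.05 (adjusted p = 0.462). The 27 immediate early genes, 22 actin, SRF and YAP genes, 25 extracellular matrix genes, 24 genes of oxidative phosphorylation, 14 ribosomal protein genes and 25 cell cycle genes had medians between -0.05 and -0.01, and those of the actin, SRF and YAP genes and of the ribosomal protein genes were 0.01 to 0.02 after quantile or cyclic loess scaling. Mechanosensitive and calcium channels had 0 calls among 17 genes, but Atp2b1, a calcium pump of the plasma membrane, fell over the IgG arrays alone (-0.20 ± 0.05, adjusted p = 0.0439). Alg11, a mannosyl transferase of N-linked glycosylation (-0.43 ± 0.10), Idi1 of sterol synthesis (-0.30 ± 0.09) and Mdm2, the p53 ligase (-0.19 ± 0.07), fell over those arrays as well (adjusted p = 0.0328, 0.0416 and 0.0421) and not over 24.

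The 1g position was also compared directly with the 2g and ug positions of the platform after the same IgG. These comparisons share the 1g arrays with the one above. Limma called 0 genes between 1g and 2g and 0 between 1g and ug, with 725 (5%) and 494 (3.41%) at an unadjusted p below 0.05. None of the 7 genes called against the incubator passed between positions. Hspb1 had means of 9.66 ± 0.19 (SD, n = 3) at 1g, 9.54 ± 0.18 at 2g and 9.61 ± 0.04 at ug, beside 9.30 ± 0.09 in the incubator, and 1g minus 2g was 0.11 with a 95% interval of -0.02 to 0.24. Serpinh1 differed between 1g and 2g by 0.05 (-0.06 to 0.15) and Banp by 0.11 (-0.04 to 0.27).

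Among the genes that fell, Map3k20 differed by -0.04 (-0.14 to 0.05) between 1g and 2g and Nipal1 by -0.06 (-0.26 to 0.15). Rnf125 was lower at 1g than at 2g by -0.20 (-0.36 to -0.04), and Olfr810 lower at 1g than at ug by -0.39 (-0.63 to -0.15). Neither passed over all genes (adjusted p = 0.962 and 1.00). Of the 5 genes with the smallest p in each comparison, Fbxo39, an F-box protein, differed most between 1g and ug (-0.73 ± 0.16) and Myl9, a myosin light chain, between 1g and 2g (0.33 ± 0.08); neither passed.

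**Figure D4:**
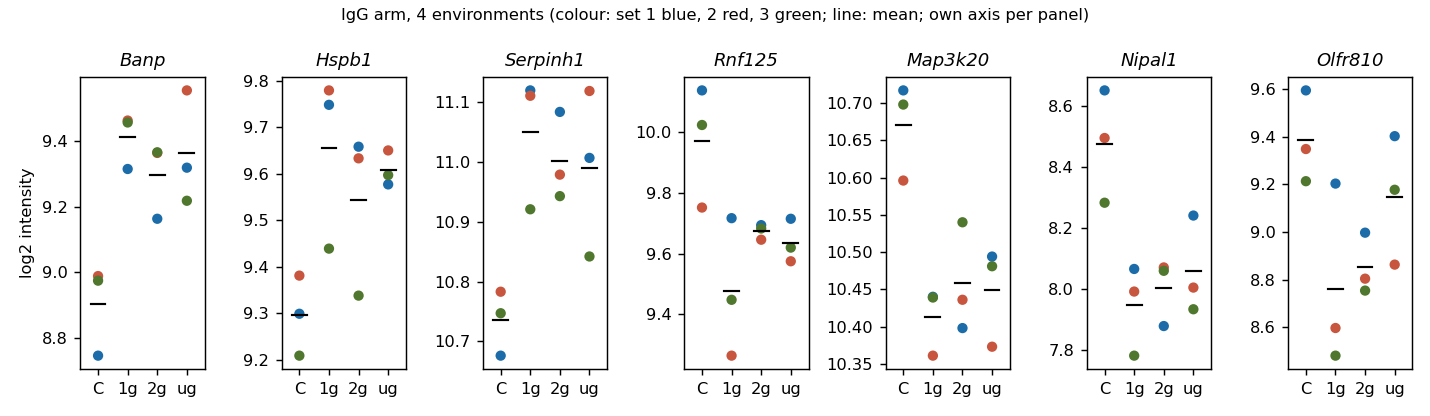
Log2 intensity of the 7 called genes in the 4 environments of the IgG arm (C, incubator; 1g, 2g and ug, positions of the platform). Points are arrays, coloured by title number, bars are means of 3 arrays, and each panel has its own axis; the incubator mean of Hspb1 is 9.30 and its platform means lie between 9.54 and 9.66.

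The same step from incubator to 1g position was measured in 6 other arrays, of cells given Cx43(E2). There limma called 0 genes, with 981 (6.77%) at an unadjusted p below 0.05, and 0 of 14489 genes differed in their change between the antibodies (1123, or 7.75%, at an unadjusted p below 0.05). Rnf125 fell in all E2 pairs, by -0.39, -0.37 and -0.42, and its change differed between the arms by -0.10 (95% interval -0.33 to 0.13). Grem1 was lower in all E2 pairs too, by a mean of -0.12 ± 0.03. Banp was higher by 0.35, 0.24 and 0.16, a difference between arms of 0.26 (0.04 to 0.47) that did not pass (adjusted p = 0.625).

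After Cx43(E2), Serpinh1 differed by 0.10 ± 0.05 without passing, and its change differed between the arms by 0.21 (0.06 to 0.36, adjusted p = 0.616). The E2 medians of the heat shock, collagen folding and unfolded protein lists were 0.03, 0.04 and 0.05. Hspb1 measured 9.69, 9.69 and 9.65 at 1g and 9.56, 9.65 and 9.68 in the incubator, so that its change was 0.04 ± 0.06 and differed between the arms by 0.32 (0.13 to 0.50, adjusted p = 0.616). The E2 incubator arrays of Hspb1 were all above those of the IgG arm, whose highest was 9.38, while the 1g arrays overlapped. Rbm3 differed by 0.01 ± 0.03 with Cx43(E2), and the arms by -0.15 (-0.24 to -0.06, adjusted p = 0.616). Cirbp and Srsf5 were lower in all E2 pairs, by means of -0.12 ± 0.06 and -0.19 ± 0.08. Their changes differed between the arms by -0.15 (-0.34 to 0.04) and -0.15 (-0.39 to 0.08). Ptgs2 differed by -0.01 ± 0.03, and the arms by -0.15 (-0.25 to -0.05, adjusted p = 0.616). For Serpinh1, Rbm3 and Ptgs2 too the incubator arrays of the arms did not overlap, while the 1g arrays did. Their E2 incubator values were 10.89 to 10.91, 12.82 to 12.88 and 12.84 to 12.91. With IgG they were 10.68 to 10.78, 12.95 to 12.96 and 13.04 to 13.24. The cause of this difference between incubator arrays was not tested. The intervals that exclude 0 belong to single genes chosen by their change in the IgG arm, and no gene passed the test over all genes.

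Of the 209 genes called over the IgG arrays alone, 198 (94.7%) had the same sign in the mean of the E2 pairs, beside 54.6% of all genes. By pair, 196 (93.8%) moved the same way in E2 pair 1, 155 (74.2%) in pair 2 and 101 (48.3%) in pair 3, where all genes gave 67.8%, 48% and 39.3%. Across all genes, differences in IgG pairs 1 and 2 correlated with E2 pair 1 at 0.490 and 0.598, and IgG pair 3 with E2 pair 3 at -0.234. The E2 pairs correlated with each other at -0.0699, -0.288 and 0.195. Pairs of the 2 arms share no array, and whether arrays of a number were handled together is not given in the sources used here.

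**Figure D5:**
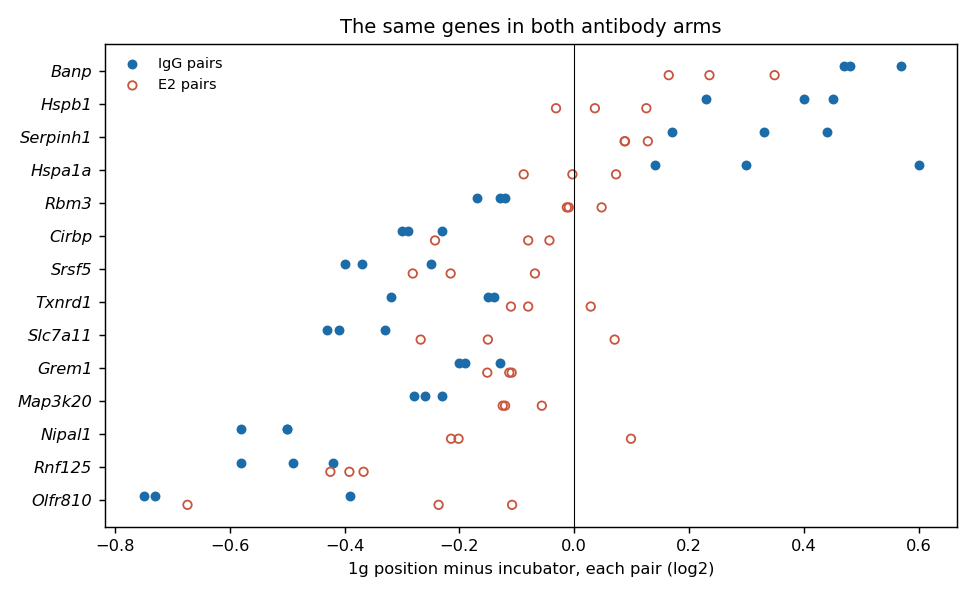
Log2 difference, 1g minus incubator, in each IgG pair (filled) and each Cx43(E2) pair (open) for 14 genes, with the 7 called genes among them. Points can coincide, as for Nipal1 with 2 IgG pairs at -0.50; the E2 values of Rnf125 lie between -0.42 and -0.37 and those of Hspb1 between -0.03 and 0.13.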

How the data were processed

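The deposited values are log2 intensities of Affymetrix probe sets, a scale judged from the values; the submitters' processing notes name MAS5, and how the authors scaled the arrays is not given in the sources used here. Groups came from titles and source names. Of 35556 rows, 21789 had 1 gene symbol in the platform table (1621 several, 12146 unlisted). A row was kept where 3 or more of the 24 arrays had it at or above their 40th percentile, and each gene was represented by its brightest row. Genes were fitted with limma 3.58.1 in R 4.3.3 as 8 group means with a block of 6 sets (antibody by title number), trended moderated variances, two-sided tests and Benjamini-Hochberg adjustment within a comparison (threshold 0.05). Results and lists are described by counts and medians, with no set test. The members, the lists and the replicate block in the design were chosen with earlier results of these data known; the pairing rests on the values (same-numbered arrays of an arm correlated at 0.195 to 0.812), not on a label. Nothing says that replicates were separate cultures, so p-values measure only the spread between these arrays, whose number limits the precision. Candidates for naming were all called genes and the 12 largest rises and 12 largest falls without overlap (6 each among dim genes). Up to 4 members of each list with the smallest p, Gja1, and the 5 smallest p of other comparisons were candidates too. All called genes are described. Of the other candidates, including the largest rises and falls, only a selection is described. Further list members were named after their values were seen. The code was tested on simulated data. Promoters are from RefSeq (GRCm38.p6). Alternatives were no block, a random block, fewer arrays, quantile and cyclic loess scaling, other filters, row means, no trend, robust variances and leaving out each number.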

Additional observations from a re-analysis of the deposited data

Results flagged for a closer look

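Among the genes named, 19 moved one way in all 3 IgG pairs and the other way in all 3 Cx43(E2) pairs at the 1g position. In the IgG arm by itself, 23.8% of all genes were higher and 21.2% lower in all 3 pairs. The share of all genes with opposite signs in the arms is not given here, so 19 cannot be judged as many or few. Each value below is the IgG change minus the E2 change on the log2 scale. The limma test of this difference, with n = 3 pairs an arm, passed for none of them (smallest adjusted p = 0.275), and several were named for their small p in that test, so the pattern of opposite signs is a description. Ecrg4, a secreted precursor peptide, had a difference of 0.75 and Hnf4aos, an antisense RNA, of 0.63. Gm10451 stood at 0.58, Vsig8 at 0.45 and the carboxypeptidase subunit Cpn1 at 0.76; these 5 genes were dim, with mean levels between 5.85 and 6.98. Rrs1, a ribosome assembly factor, stood at -0.78 and Fbxo39 at -0.32. Of the pro-apoptotic Bcl2 family, Bad had 0.37 and Bik 0.38, and the clock output gene Dbp had 0.37. The inflammasome adaptor Pycard had 0.25 and the pore protein Gsdmd -0.27. The muscle filament gene Des stood at 0.27 and the osteoclast protease Ctsk at -0.33. Sqstm1, an autophagy receptor, had -0.21. The very bright transcripts Actb (-0.093), Rps2 (-0.087), Rn7sk (-0.085) and Rpl4 (-0.13) moved by little in either arm.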

How the results depend on the processing

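For 1g against the incubator with IgG, limma called 7 genes (3 higher, 4 lower) with the replicate block. It called 0 with no replicate block (0 higher, 0 lower), 3 with the set as a random block (1 lower), 209 over the 12 IgG arrays (33 higher, 176 lower), 313 over the 6 arrays alone (46 and 267), 19 after quantile normalization (15 higher), 17 after cyclic loess (13 higher), 3 with no filter on dim rows (1 lower) and 1 without a variance trend (1 higher, 0 lower). The 60th percentile filter gave 2 lower. Leaving out 1 number gave 0 to 3 calls, 0 to 3 higher and 0 to 0 lower; numbers 1 and 2 each ended all of them. For the difference between arms a random block called 2 genes, and for 1g against ug leaving out number 2 called 2, where 0 were called otherwise. The causes were not tested. The 85 genes followed through the 14 alternatives kept their direction wherever they were tested. Many had been picked on these arrays for their direction in all pairs or a small p, so this was largely fixed in advance. Without the block 78 kept their side of the threshold, all of them uncalled in both fits, and the 7 called genes lost their calls. Some genes with values above, such as Hspa8 and Nqo1, were not among the 85. List medians near 0 changed sign with scaling or the number left out, among them osteocyte markers (-0.02 after quantile normalization) and the unfolded protein response (-0.02 without number 1).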

Other observations

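Caspases and other genes of pyroptosis were mostly dim, and 6 of 12 were tested. Casp4, the caspase that senses cytosolic lipopolysaccharide, measured 8.01, 7.98 and 8.09 at the 1g position and 8.47, 8.52 and 8.31 in the incubator. The groups did not overlap and the difference was -0.40 ± 0.11 (limma adjusted p = 0.115, n = 3 pairs). The list had 5 lower and 1 higher gene. Trpm7, an ion channel with a kinase domain that conducts magnesium, read 8.30, 8.31 and 8.29 at 1g and 8.83, 9.02 and 8.43 in the incubator (-0.46 ± 0.15, adjusted p = 0.181). Its 1g arrays were alike and its incubator arrays spread widely, with number 3 nearest to the 1g level. Of the TGF-beta and BMP responsive genes in the Wnt and BMP list, Id2 and Smad7 differed by -0.23 ± 0.07 and -0.23 ± 0.09, while Id1, Id3 and Smad6 differed by 0.05 ± 0.13, 0.07 ± 0.08 and -0.01 ± 0.07; none passed.

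Probe sets without a single gene symbol were fitted apart. Of 6855 such rows, 5930 unlisted in the platform table and 925 with several symbols, limma called 0 between 1g and incubator after IgG, and 634 (9.25%) had an unadjusted p below 0.05.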
